A study of Mus musculus with 27 samples.

Results

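Hoxa2, Hoxa3, Hoxa4, Hoxa5, Hoxa6 and Hoxa7 are 6 homeobox genes of the anterior (3′) end of the mouse HoxA cluster, and they were chosen by name, as rows of a table of 23279 genes. All 6 were in the table, and all 6 passed the filter on low values in each comparison. They lie on the minus strand of chromosome 6 within 56.2 kb (chr6:52162417-52218573, RefSeq annotation of GRCm38.p6), in the order Hoxa2 to Hoxa7 from the 3′ side. The RefSeq span of Hoxa3 is 44.0 kb and includes Hoxa4, Hoxa5 and Hoxa6 in its introns and upstream exons, whereas each of the other genes spans a few kilobases. Messenger RNA was measured in 27 libraries of 9 groups, 3 libraries each.

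Of the embryonic groups, all dissected from Slc:ICR mouse embryos, forelimb buds (FLBs) and hindlimb buds (HLBs) were taken at an early stage labelled E10.0 and at E10.5, and branchial arch (BA), cardiac tissue (Ca) and tail bud (TB) were taken at E10.5. Although both early limb groups are labelled E10.0, the study's legends give the early FLBs a younger age than the early HLBs. The ES–FLB and ES–HLB groups were limb bud-like tissues grown as floating aggregates of the mouse embryonic stem cell line EB5 with a Hand2::GFP +/- reporter. Both were harvested on day 9 of culture, and Hand2::GFP+ cells were sorted from pooled aggregates before RNA extraction. Retinoic acid (RA) was given to ES–FLBs between days 5 and 6, and an RA antagonist was given to ES–HLBs between days 6 and 6.5. ES–LBs therefore represent 1 cell line and sorted mesenchyme, while the embryonic tissues were not sorted, so that strain, culture and sorting cannot be told apart in any comparison of ES–LBs with embryos. Because the labels do not state that replicates were separate animals or cultures, the p-values measure only the spread between these libraries.

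Hox genes encode homeodomain transcription factors whose order along the chromosome matches their order of expression along the head-to-tail axis, with genes at the 3′ end switched on earlier and further forward. Hoxa2 and Hoxa3 are best known for patterning the hindbrain and the branchial arches behind the first, Hoxa4, Hoxa5 and Hoxa6 for the neck and upper trunk, including the level at which forelimbs form, and Hoxa7 for the trunk. RA, made from retinol by Rdh10 and Aldh1a2 and degraded by Cyp26 enzymes, is a classical activator of genes at the 3′ end of Hox clusters. In limb buds, HoxA genes at the other end of the cluster (Hoxa9 to Hoxa13) pattern the limb axis, and Hox proteins of the anterior groups bind DNA with Pbx and Meis cofactors.

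The 6 genes have related homeoboxes, and the coding stretch in which they are most alike is shown because reads from it must be told apart for the levels below. In this window of 60 bases, in the last exon of each gene (exon 2, or exon 5 for Hoxa3), 33 bases are the same in all 6 genes and the 27 others are in capitals. From Hoxa2 to Hoxa7 the windows are chr6:52163491-52163550, chr6:52170599-52170658, chr6:52190563-52190622, chr6:52202712-52202771, chr6:52206505-52206564 and chr6:52215923-52215982 (GRCm38, minus strand, read 5′ to 3′):
Hoxa2: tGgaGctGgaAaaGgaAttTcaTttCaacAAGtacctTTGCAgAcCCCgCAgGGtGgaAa
Hoxa3: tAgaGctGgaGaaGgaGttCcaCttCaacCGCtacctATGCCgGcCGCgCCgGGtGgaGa
Hoxa4: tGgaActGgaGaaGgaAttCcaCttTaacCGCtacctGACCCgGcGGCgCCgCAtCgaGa
Hoxa5: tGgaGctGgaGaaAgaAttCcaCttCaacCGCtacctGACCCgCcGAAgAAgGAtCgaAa
Hoxa6: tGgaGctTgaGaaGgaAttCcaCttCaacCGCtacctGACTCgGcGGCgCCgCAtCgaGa
Hoxa7: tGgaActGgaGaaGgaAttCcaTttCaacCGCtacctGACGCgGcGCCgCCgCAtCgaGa
The longest run of identical bases shared by the transcripts of 2 of these genes was 47 bases (Hoxa6 and Hoxa7), and 52 bases were shared with Hoxb4, both shorter than the reads of 80 bases. The annotated transcript Gm28308, on the same strand and not in the table, shares a run of 269 bases with Hoxa2 and of 261 with Hoxa3, so reads from those stretches cannot be assigned to 1 gene. Identity over the coding sequences of a pair ranged from 44.9% to 59.0%. All 798 bases of the RefSeq span of the RNA Mira lie within exons of Hoxa7 in the GENCODE annotation, but outside the RefSeq span of Hoxa7. Of antisense RNAs, Hoxaas3 shares 586 exon bases with Hoxa7 and 297 with Hoxa3, Hoxaas2 shares 503 with Hoxa3, and Gm29430 shares 437 with Hoxa3 and 255 with Hoxa4. Because the strand setting of the counting is not stated in the sources used here, reads of Hoxa3, Hoxa4 and Hoxa7 cannot be separated from those partners with certainty.

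RefSeq promoter sequences were at hand for 5 of the 6 genes. Those of Hoxa2, Hoxa5 and Hoxa7 are given because the values of these 3 genes moved differently between ES–LBs and limb buds, and they cover the 250 bases before the RefSeq start (GRCm38.p6, minus strand, read 5′ to 3′). Capitals mark matches to letters searched on both strands for a Pbx–Hox site (TGATNNAT), a Meis site (TGACAG) or an RA receptor half-site (AGGTCA with its variant GGGTCA, and AGTTCA with its variant GGTTCA). The stretches are chr6:52164832-52165081 for Hoxa2, chr6:52204588-52204837 for Hoxa5 and chr6:52218574-52218823 for Hoxa7:
Hoxa2: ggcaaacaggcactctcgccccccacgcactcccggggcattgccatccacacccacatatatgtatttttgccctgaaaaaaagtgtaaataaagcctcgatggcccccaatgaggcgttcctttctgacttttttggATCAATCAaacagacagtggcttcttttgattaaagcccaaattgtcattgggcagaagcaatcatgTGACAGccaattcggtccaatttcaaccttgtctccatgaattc
Hoxa5: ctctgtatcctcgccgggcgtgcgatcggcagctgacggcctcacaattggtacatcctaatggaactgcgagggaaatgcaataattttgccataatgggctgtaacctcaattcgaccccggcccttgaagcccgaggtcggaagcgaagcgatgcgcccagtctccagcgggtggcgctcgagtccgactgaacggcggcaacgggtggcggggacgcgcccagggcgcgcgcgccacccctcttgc
Hoxa7: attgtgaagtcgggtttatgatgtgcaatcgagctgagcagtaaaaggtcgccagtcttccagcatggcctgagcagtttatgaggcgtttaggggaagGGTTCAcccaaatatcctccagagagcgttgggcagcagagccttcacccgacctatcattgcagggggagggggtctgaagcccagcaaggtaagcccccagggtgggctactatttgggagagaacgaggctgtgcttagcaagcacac
Among windows from 250 bases before to 50 bases after 32851 gene starts, a half-site was present in 43.7%, and it was present in 2 of the 5 Hoxa windows (Hoxa5 and Hoxa7). That of Hoxa5 lies 41 bases after the start, outside the printed stretch. That of Hoxa7 lies before the RefSeq start, whereas the GENCODE transcript used here for Hoxa7 starts at chr6:52217505, inside the RefSeq span. The Pbx–Hox letters occurred in 8.85% of all windows and in 1 of 5 (Hoxa2), and the Meis letters in 19.2% and in 2 of 5 (Hoxa2 and Hoxa3). The letters TTTATNG of a Cdx site, present in 10.9% of all windows, and half-sites repeated at a spacing of 1, 2 or 5 bases (0.222%, 0.268% and 0.0974% of windows) matched none of the 5. The Hox core TAAT, present in 58.0% of windows, matched 4 of 5. These matches describe letters and were not tested for binding.

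The second E10.5 HLB library held no usable values for these genes, since 499 of 501 chromosome 6 genes above 2 CPM in both of its partner libraries were listed at 0. It was left out, so 26 libraries were used and E10.5 HLBs had 2. Levels are given as CPM, read counts relative to the total of the library, rescaled across libraries by trimmed means (scaled CPM). Depth, read from the value of a single read, ranged from 5543756 to 22142302 reads, so that 3 reads, taken as the floor, stood for 0.135 to 0.541 CPM. E10.5 limb buds were the shallowest libraries and early limb buds the deepest, and stage and depth cannot be told apart. Early limb buds held 19642240 to 22142302 reads per library and ES–LBs 6569891 to 7879906. Depth therefore also cannot be told apart from strain, culture and sorting where ES–LBs are compared with early limb buds. The floor covers counting error only, and the 95% intervals given for log2 differences rest on the spread between libraries. The defining limb genes matched the labels: Tbx5, which marks forelimbs, was at 100 scaled CPM in early FLBs against 0.721 in early HLBs and at 69.3 in ES–FLBs against 3.09 in ES–HLBs, and Pitx1, which marks hindlimbs, was at 7.90 against 245 and at 7.25 against 68.6.

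The 6 genes differed in where they were most abundant. Hoxa2 and Hoxa3 had their highest mean levels in ES–FLBs, Hoxa4, Hoxa5 and Hoxa7 in early FLBs, and Hoxa6 in TB. Summed over the 6 genes, the level was 159 ± 4.4 scaled CPM in ES–FLBs (SD, n = 3) and 147 in early FLBs, 61.1 in early HLBs and 48.2 ± 3.2 in ES–HLBs, and it was lowest in Ca (15.3) and BA (31.0). In bulk tissue, fewer expressing cells and less RNA per cell cannot be told apart.

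Per kilobase of the longest annotated basic transcript, the scale used to compare genes, Hoxa5 was the most abundant of the 6 in early FLBs at 33.5 CPM per kb, followed by Hoxa4 (13.3), Hoxa7 (12.5), Hoxa3 (9.03), Hoxa2 (6.26) and Hoxa6 (3.18). The order differed in ES–FLBs, where Hoxa5 (31.1 CPM per kb) was followed by Hoxa2 (24.7) and Hoxa3 (13.4), and in ES–HLBs, where Hoxa2 came first at 12.5 CPM per kb, ahead of Hoxa3 (5.16) and Hoxa5 (3.33). Lengths were those of GENCODE transcripts. Their ends differ from the RefSeq spans for Hoxa6 and Hoxa7, so values per kb of these genes also depend on the annotation. The order depended on the length used for Hoxa3, 2.591 kb for that transcript and 6.014 kb for all of its annotated exons. With the latter, an alternative added after the values were seen, Hoxa3 stood at 3.89 CPM per kb in early FLBs, below Hoxa2, at 5.77 in ES–FLBs, below Hoxa4 (7.04), and at 2.22 in ES–HLBs, below Hoxa5, while Hoxa5 stayed the highest in early FLBs and ES–FLBs and Hoxa2 in ES–HLBs.

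**Figure D1:**
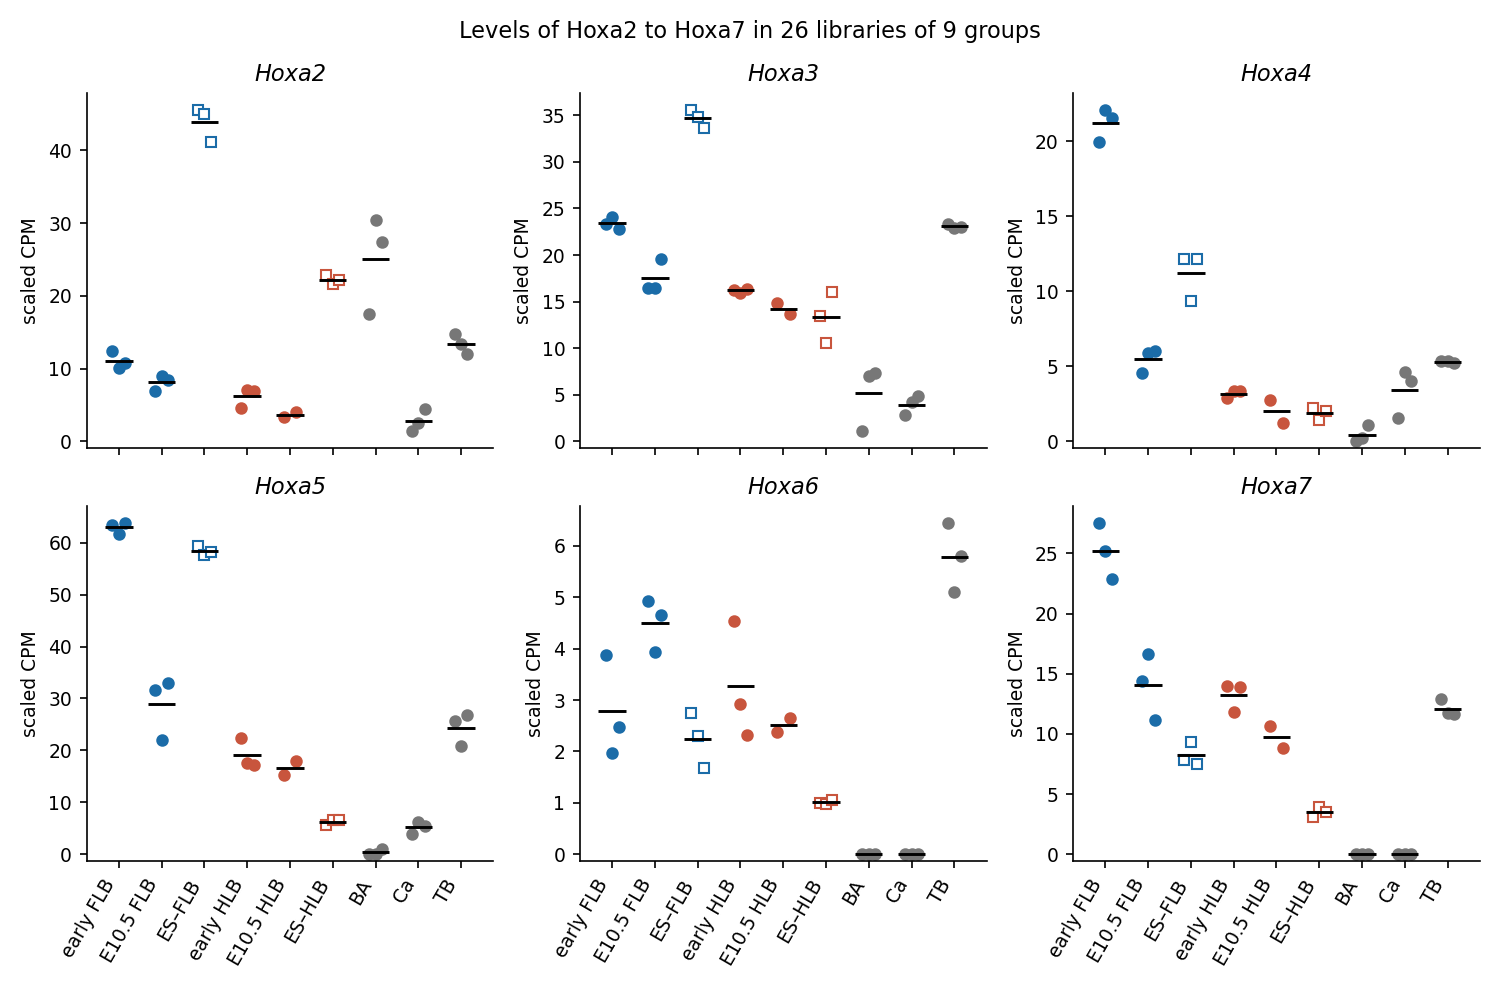
Level of each of the 6 Hoxa genes (scaled CPM, linear axis that includes 0) in the 9 groups; points are libraries, lines group means, blue forelimb and red hindlimb groups, grey the other embryonic tissues, and open squares ES–LBs. Hoxa5 stands near 60 scaled CPM in early FLBs and ES–FLBs and at 6.24 ± 0.55 (SD, n = 3) in ES–HLBs, whereas Hoxa6 stays below 7 everywhere and is at 0 with Hoxa7 in BA and Ca.

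Hoxa2, which patterns the second branchial arch, was ordered ES–FLBs, BA, ES–HLBs, TB, early FLBs, E10.5 FLBs, early HLBs, E10.5 HLBs and Ca. BA held 17.5, 30.4 and 27.4 scaled CPM and overlapped ES–HLBs, at 22.8, 21.6 and 22.1. ES–FLBs, at 45.6, 44.9 and 41.2 scaled CPM, exceeded every other library. TB (14.8, 13.3 and 12) overlapped early FLBs (12.4, 10.2 and 10.8). E10.5 FLBs overlapped early HLBs, and E10.5 HLBs overlapped Ca.

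Hoxa5, which specifies vertebral identity at the neck and upper thorax, was ordered differently, from early FLBs and ES–FLBs to BA at the bottom. Early FLBs stood at 63.5, 61.6 and 63.8 scaled CPM and ES–FLBs at 59.3, 57.7 and 58.3. E10.5 FLBs followed at 31.6, 22 and 33.1, overlapping TB, and TB, early HLBs and E10.5 HLBs overlapped each with the next. ES–HLBs (5.61, 6.55 and 6.56 scaled CPM) overlapped Ca (3.83, 6.15 and 5.51) and lay below every limb bud library. In BA, 0, 1 and 8 reads were found.

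Hoxa7, the most posterior of the 6 genes, was at 27.5, 25.2 and 22.9 scaled CPM in early FLBs, above every other library. E10.5 FLBs, early HLBs and TB followed, neighbours in that order overlapping. ES–FLBs (7.86, 9.32 and 7.52 scaled CPM) overlapped E10.5 HLBs (10.6 and 8.86), ES–HLBs were lower at 3.12, 3.90 and 3.52, and BA and Ca libraries were at 0. Hoxa6, its neighbour in the cluster, had the same 2 tissues at 0 and a narrower range, with TB highest at 6.45, 5.10 and 5.81 scaled CPM and overlap between each pair of neighbours from E10.5 FLBs down to ES–FLBs.

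The limb-type comparison asks how early HLBs differ from early FLBs. By the study's legends these FLBs were younger, so limb type and age cannot be told apart in any comparison of early HLBs with early FLBs. Hoxa4 and Hoxa5 showed the widest gap. Hoxa4 was at 19.9, 22.1 and 21.5 scaled CPM in early FLBs and at 2.86, 3.37 and 3.34 in early HLBs. Hoxa5 was at 22.5, 17.6 and 17.2 in early HLBs against the FLB values above 60 given for it. Groups did not overlap for either gene. Hoxa4 was 6.65-fold lower in HLBs (log2 difference −2.56 ± 0.11, SE, adjusted p = 1.02e-07, limma over all genes) and Hoxa5 was 3.30-fold lower (−1.70 ± 0.09, adjusted p = 1.08e-06).

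The genes on either side moved less. Hoxa2, at 12.4, 10.2 and 10.8 scaled CPM in early FLBs, was at 4.54, 7.00 and 6.96 in early HLBs. Hoxa3, which patterns the third arch and its derivatives, was at 23.3, 24.1 and 22.8 against 16.3, 15.9 and 16.4, and Hoxa7 in HLBs was at 13.9, 11.8 and 13.9. None of these ranges overlapped, and the log2 differences were −0.82 (adjusted p = 0.0052), −0.52 (adjusted p = 0.00075) and −0.91 (adjusted p = 0.000112). Hoxa6 overlapped between early FLBs (3.88, 1.98 and 2.48) and early HLBs (4.54, 2.93 and 2.32), with a log2 difference of 0.20 and a 95% interval from −0.38 to 0.78 (adjusted p = 0.639). Thus 5 of the 6 genes were lower in early HLBs, where 11.1% of all genes tested were lower. The median log2 difference of the 6 was −0.86, against −0.01 over all genes. Hoxa3 lost its call when all 26 libraries shared 1 model (adjusted p = 0.418).

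At E10.5 the same comparison gave smaller differences for Hoxa4 and Hoxa5. Hoxa4 was at 4.58, 5.92 and 6.03 scaled CPM in FLBs and at 2.75 and 1.24 in HLBs, 2.76-fold lower (adjusted p = 0.000119). Hoxa5 was at 31.6, 22 and 33.1 against 15.2 and 17.9, 1.75-fold lower (adjusted p = 3.51e-05). Hoxa2, at 6.96, 9.04 and 8.44 against 3.30 and 4.07, was 2.21-fold lower (adjusted p = 0.000156). By the test, 5 of the 6 genes were lower in HLBs, where 10.9% of all genes tested were lower. Hoxa3 did not pass, at 16.5, 16.4 and 19.6 against 14.8 and 13.6 scaled CPM, with a log2 difference of −0.29 and an interval from −0.57 to −0.00 (adjusted p = 0.132).

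At E10.5, Hoxa6 and Hoxa7 lost their calls in more alternatives than Hoxa2, Hoxa4 or Hoxa5. Without trend and robust estimation in limma, Hoxa4 (adjusted p = 0.0612) and Hoxa5 (adjusted p = 0.0837) did not pass. With all 26 libraries in 1 limma model, Hoxa5 did not pass either (adjusted p = 0.0722). Hoxa6 was at 4.92, 3.94 and 4.65 scaled CPM in FLBs and at 2.38 and 2.66 in HLBs (log2 difference −0.73, adjusted p = 0.0304), and Hoxa7 was at 14.4, 16.6 and 11.2 against 10.6 and 8.86 (−0.50, adjusted p = 0.0204). The number of the 6 genes that passed fell to 3 without FLB replicate 1 or HLB replicate 3, and without the latter the difference of Hoxa4 was −0.88.

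Between the ES–LBs, all 6 genes passed the test as lower in ES–HLBs than in ES–FLBs, where 12.3% of all genes tested were lower. Hoxa5 showed the widest gap, from 59.3, 57.7 and 58.3 scaled CPM in ES–FLBs to 5.61, 6.55 and 6.56 in ES–HLBs, a 9.36-fold lower mean (log2 difference −3.13 ± 0.10, SE, adjusted p = 4.57e-21). Hoxa4 fell from 12.1, 9.32 and 12.2 to 2.24, 1.39 and 1.99 scaled CPM, 5.98-fold (adjusted p = 1.83e-11). For both genes the lowest ES–FLB library was several times the highest ES–HLB library.

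Hoxa3, at 35.6, 34.9 and 33.7 scaled CPM in ES–FLBs and 13.5, 10.6 and 16.1 in ES–HLBs, was 2.60-fold lower (adjusted p = 6.8e-11). Hoxa2, at 45.6, 44.9 and 41.2 against 22.8, 21.6 and 22.1, was 1.98-fold lower (adjusted p = 4.84e-11), and Hoxa7 was 2.35-fold lower (adjusted p = 4.56e-06). Hoxa6 was at 2.74, 2.30 and 1.67 scaled CPM in ES–FLBs, while its 3 ES–HLB values of 0.998, 0.976 and 1.05 rested on 8, 7 and 9 reads. Its log2 difference of −0.84 passed (adjusted p = 0.0146) but did not without ES–FLB replicate 1 (adjusted p = 0.0961) or 2 (adjusted p = 0.0546). Median differences were −1.24 over the 6 genes and 0.00 over all genes.

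**Figure D2:**
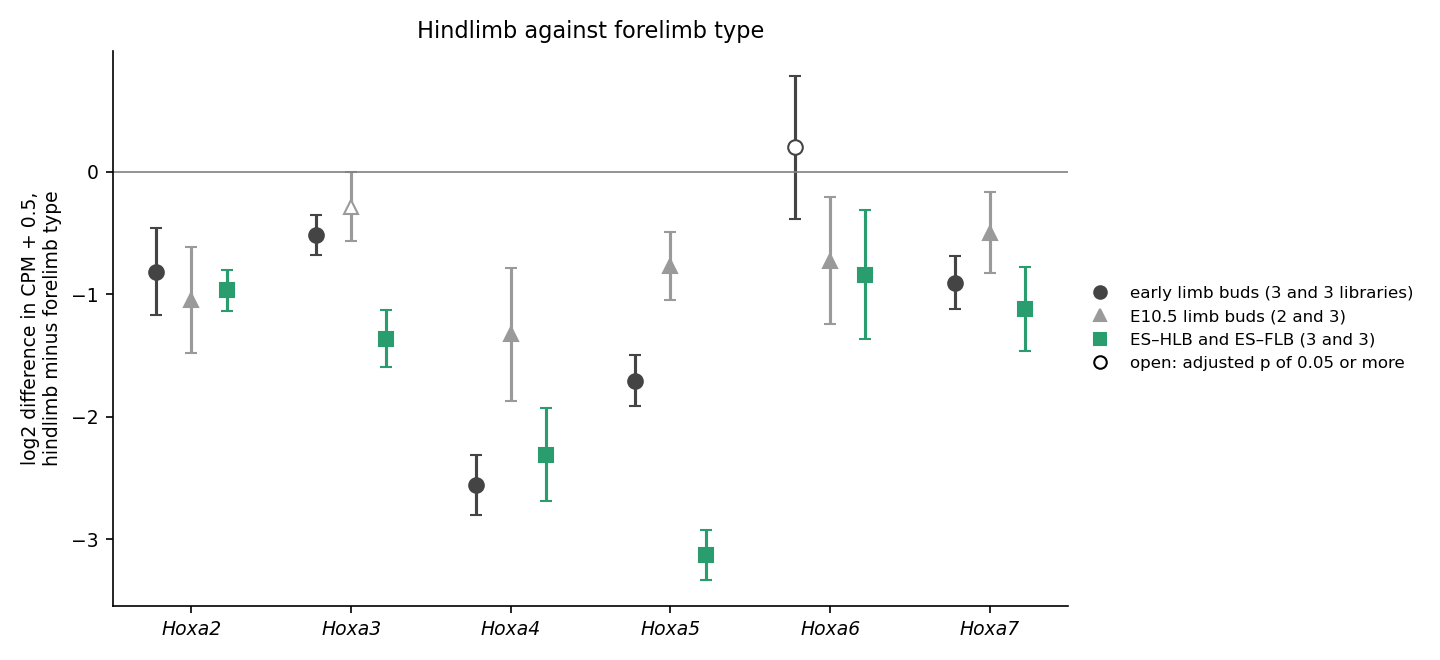
Log2 difference between hindlimb and forelimb groups for each of the 6 Hoxa genes in early limb buds, E10.5 limb buds and ES–LBs; points are limma estimates on log2(scaled CPM + 0.5), bars 95% confidence intervals, filled points adjusted p below 0.05 and open points not. Hoxa5 lies at −3.13 in ES–LBs, −1.70 in early limb buds and −0.77 at E10.5, and Hoxa6 in early limb buds is the only estimate above 0.

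Whether the gap between limb types differed in ES–LBs from that in early limb buds was tested directly, as the ES–LB difference minus the embryonic difference. It was more negative for 3 of the 6 genes, where 9.92% of all genes tested were. These were Hoxa5 (−1.43 ± 0.13, SE, adjusted p = 1.27e-07), Hoxa3 (−0.85 ± 0.15, adjusted p = 0.00037) and Hoxa6 (−1.04 ± 0.33, adjusted p = 0.029). For the genes that did not pass, the intervals were −0.52 to 0.22 for Hoxa2, −0.21 to 0.71 for Hoxa4 and −0.58 to 0.15 for Hoxa7, so that shifts of that size were not detectable. Hoxa6 lost its call in 10 of 21 alternatives, including the leaving out of several single libraries, and Hoxa3 lost it with all 26 libraries in 1 model (adjusted p = 0.326). The embryonic side of this test also holds the age difference between early FLBs and early HLBs.

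At the other end of the cluster, genes were higher in hindlimb types in early limb buds and ES–LBs. Of the 4 posterior genes Hoxa9, Hoxa10, Hoxa11 and Hoxa13, 3 were higher in early HLBs, where 9.03% of all genes tested were higher, and all 4 were higher in ES–HLBs than in ES–FLBs, where 12.8% were. At E10.5 only Hoxa10 (0.25) and Hoxa11 (0.69) were higher in HLBs, where 15.2% of all genes were, and Hoxa9 (−0.12) and Hoxa13 (−0.31) did not pass. In ES–LBs, Hoxa10 was at 94.0 ± 1.4 scaled CPM in ES–HLBs and 22.4 ± 2.0 in ES–FLBs (SD, n = 3 each), and Hoxa11 at 51.7 ± 2.8 and 8.93 ± 1.2. Their log2 differences were 2.05 (adjusted p = 8.47e-20) and 2.47 (adjusted p = 1.86e-18), and those of Hoxa9 and Hoxa13 were 1.41 and 1.54. The sign thus changed between Hoxa7 and Hoxa9 in ES–LBs, and in early limb buds Hoxa9 (0.61, adjusted p = 0.095) did not pass. Skap2, the flanking gene on the Hoxa2 side, was lower in ES–HLBs (7.47 ± 1.2 against 19.1 ± 1.4 scaled CPM, log2 difference −1.31, adjusted p = 1.66e-09), while Hibadh on the far side differed by −0.04 (adjusted p = 0.765).

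**Figure D3:**
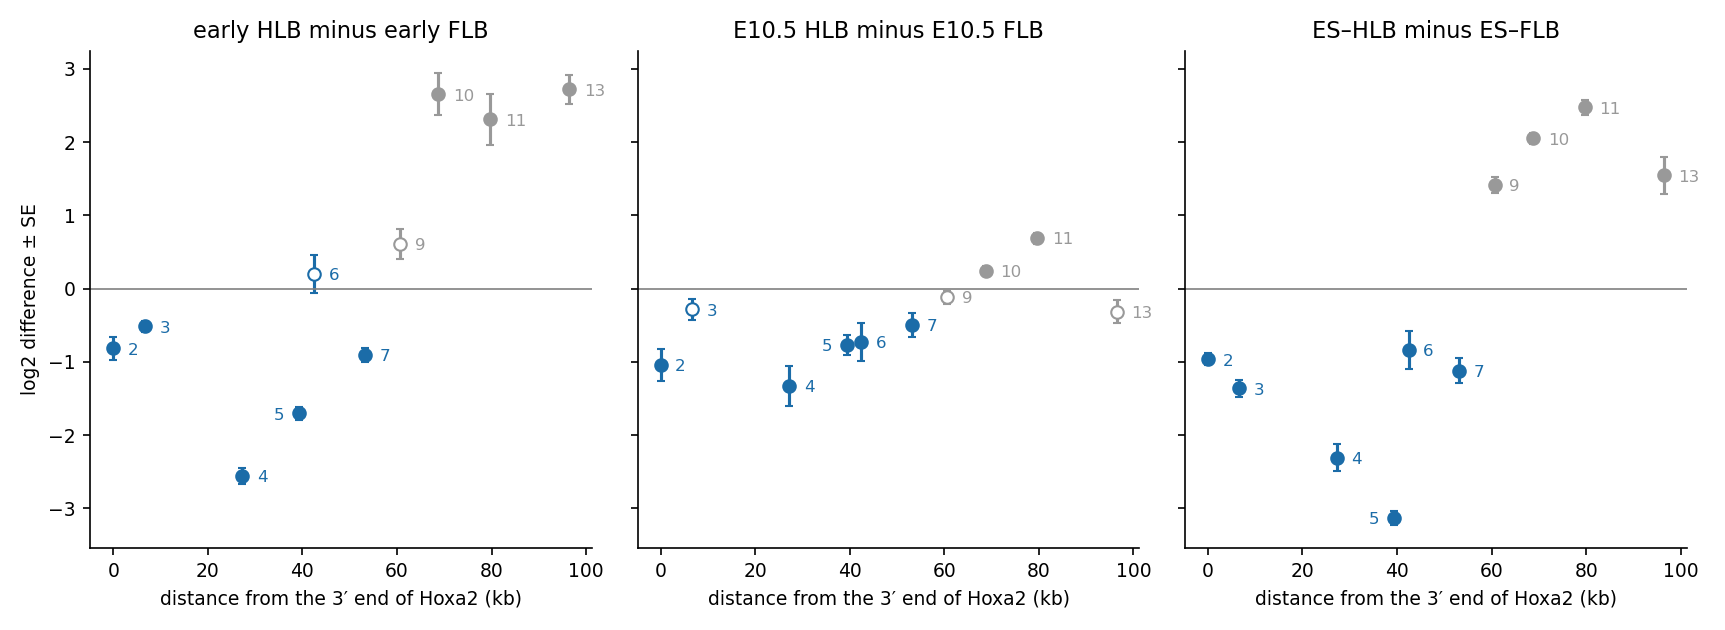
Log2 difference between hindlimb and forelimb groups (y axis) against distance along the HoxA cluster, in kb between the 3′ end of each gene and that of Hoxa2 (x axis), for early limb buds, E10.5 limb buds and ES–LBs; numbers are Hoxa gene numbers, bars SE, blue the 6 anterior genes and grey the posterior genes, filled points adjusted p below 0.05. In ES–LBs the difference is lowest at Hoxa5 (−3.13), returns to −1.12 at Hoxa7 and is above 0 from Hoxa9 on.

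ES–LBs were next set against the early limb buds they model. Hoxa2 stood furthest above its embryonic level. ES–FLBs held 45.6, 44.9 and 41.2 scaled CPM where early FLBs held 12.4, 10.2 and 10.8, 3.96-fold higher (log2 difference 1.94, adjusted p = 6.9e-12). ES–HLBs were 3.60-fold above early HLBs (1.79, adjusted p = 4.2e-08). Hoxa7 went the other way, 3.06-fold lower in ES–FLBs than in early FLBs (−1.56, adjusted p = 1.24e-09) and 3.76-fold lower in ES–HLBs than in early HLBs (−1.77, adjusted p = 3.34e-08). Groups did not overlap for these genes.

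In ES–FLBs 2 of the 6 genes were higher, Hoxa2 and Hoxa3, where 37.3% of all genes tested were higher, and 2 were lower, Hoxa4 and Hoxa7, where 44.6% were lower. Hoxa3 was 1.48-fold higher (0.56, adjusted p = 2.38e-06) and Hoxa4 1.89-fold lower (−0.90, adjusted p = 1.54e-06). The call of Hoxa3 was lost with all 26 libraries in 1 limma model (adjusted p = 0.197). Hoxa5 differed by −0.11 with an interval from −0.22 to 0.01 (adjusted p = 0.0868). That sign depended on the scaling, and on CPM as deposited Hoxa5 was higher in ES–FLBs (0.20, adjusted p = 0.0035). Hoxa6 overlapped between the groups (−0.24, adjusted p = 0.334).

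In ES–HLBs only Hoxa2 of the 6 genes was higher than in early HLBs, where 35.5% of all genes tested were higher, and 4 were lower, where 42.9% were lower. Hoxa5 was at 5.61, 6.55 and 6.56 scaled CPM against 22.5, 17.6 and 17.2, 3.06-fold lower (−1.53, adjusted p = 6.65e-08). Hoxa6 was 3.24-fold lower (−1.28, adjusted p = 0.000109) and Hoxa4 1.70-fold lower (−0.65, adjusted p = 0.00738). The call of Hoxa4 was lost on CPM as deposited (adjusted p = 0.0524, limma) and with all 26 libraries in 1 limma model (adjusted p = 0.0711). Hoxa3 overlapped and differed by −0.29 (adjusted p = 0.0609).

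**Figure D4:**
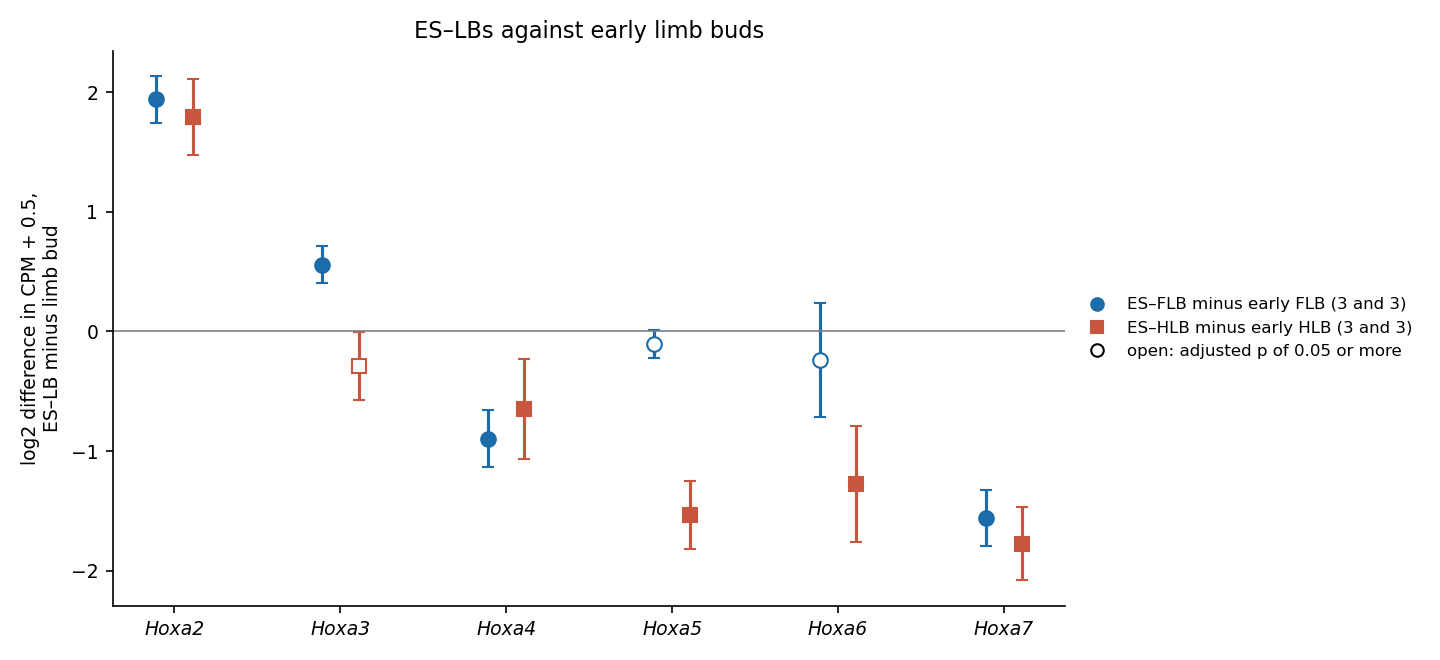
Log2 difference between ES–LBs and the early limb buds of the same type for each of the 6 Hoxa genes; points are limma estimates on log2(scaled CPM + 0.5), bars 95% confidence intervals, filled points adjusted p below 0.05 and open points not. Hoxa2 lies at 1.94 for forelimb and 1.79 for hindlimb types, and Hoxa7 at −1.56 and −1.77.

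The relative makeup of the 6 genes was taken within each library, as shares of their summed CPM per kb, with the same GENCODE lengths. Hoxa2 made up 8.02% ± 0.60 in early FLBs and 29.8% ± 0.93 in ES–FLBs (SD, n = 3), and 10.9% ± 3.1 in early HLBs and 49.9% ± 2.3 in ES–HLBs. Hoxa5 made up 43.1% and 37.5% in the forelimb types but 31.5% and 13.3% in the hindlimb types, and in BA Hoxa2 alone made up 86.9% ± 8.3. With the length of all annotated exons, Hoxa2 made up 9.06% in early FLBs, 33.4% in ES–FLBs, 13.2% in early HLBs and 57.9% in ES–HLBs. The ratio of Hoxa2 to Hoxa5 CPM had a mean of 0.176 in early FLBs and 0.752 in ES–FLBs, and of 0.335 in early HLBs and 3.58 in ES–HLBs. That ratio was contrasted in 4 ways: ES–FLBs with early FLBs, ES–HLBs with early HLBs, and hindlimb with forelimb types in early limb buds and in ES–LBs. In each, ranges did not overlap and the two-sided exact permutation p was 0.1, the smallest that 3 against 3 libraries allow. In E10.5 limb buds, which were not among these contrasts, the means ran the other way and ranges overlapped. The ratio there was 0.295 in FLBs (0.220 to 0.410) and 0.222 in HLBs (0.217 to 0.228).

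**Figure D5:**
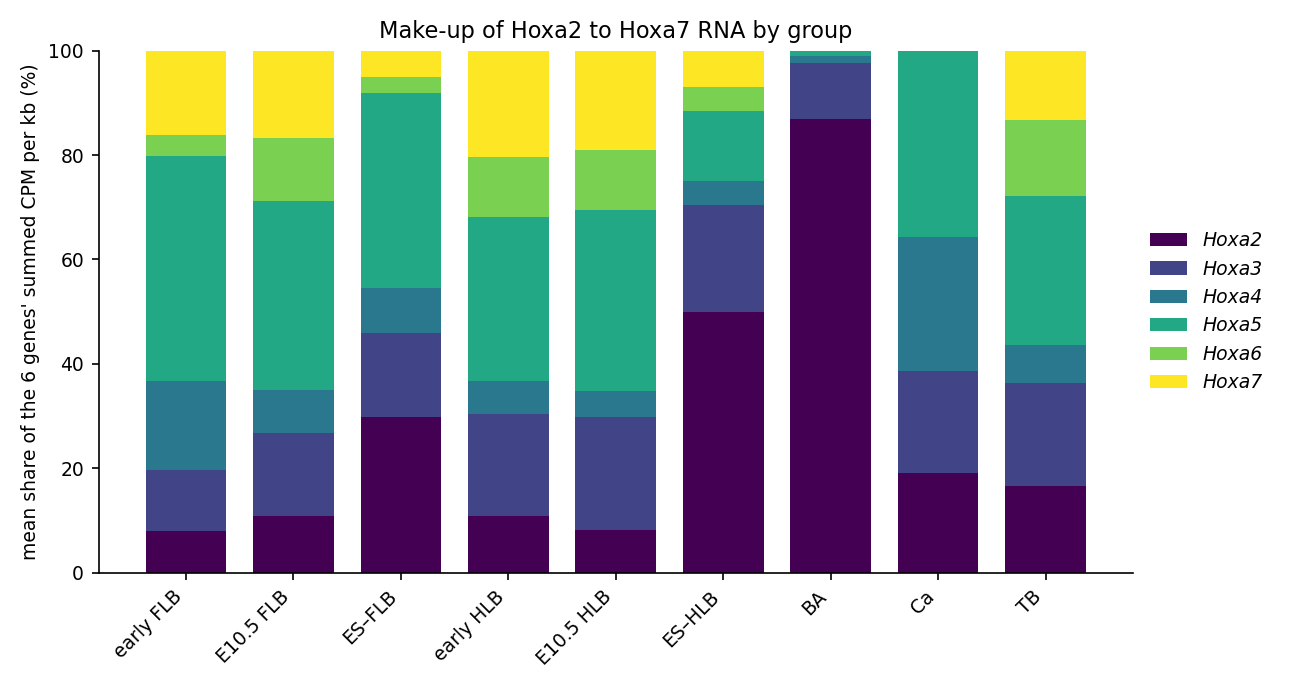
Mean share of each of the 6 Hoxa genes in their summed CPM per kb (percent, stacked bars from 0 to 100) in each of the 9 groups. Hoxa2 takes 86.9% in BA, 49.9% in ES–HLBs and 29.8% in ES–FLBs, and between 8% and 11% in the limb buds.

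From the early stage to E10.5, FLBs lost Hoxa4 and Hoxa5 RNA relative to all genes. Hoxa4 fell from 19.9, 22.1 and 21.5 to 4.58, 5.92 and 6.03 scaled CPM, 3.85-fold (adjusted p = 7.98e-10), and Hoxa5 2.18-fold (adjusted p = 0.000109). In all, 5 of the 6 genes were lower at E10.5, where 40.2% of all genes tested were lower, and Hoxa6 was 1.62-fold higher (adjusted p = 0.0127), where 25.7% were higher. The smaller decreases of Hoxa2 (−0.43, adjusted p = 0.0107) and Hoxa3 (−0.41, adjusted p = 0.00105) were not called on CPM as deposited, at −0.20 and −0.18.

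In HLBs only 2 of the 6 genes, Hoxa2 and Hoxa7, were lower at E10.5, where 20.9% of all genes tested were lower. Their differences were −0.65 (adjusted p = 0.043) and −0.42 (adjusted p = 0.0416). None of the 6 passed without early HLB replicate 3. Only Hoxa2 passed without early HLB replicate 1, and only Hoxa7 without early HLB replicate 2. Leaving out E10.5 HLB replicate 1 or 3 left 1 library in that group. The differences were then −0.52 and −0.79 for Hoxa2 and −0.55 and −0.30 for Hoxa7. Without E10.5 HLB replicate 1 the difference of Hoxa4 was −1.08. Hoxa5 stood at 22.5, 17.6 and 17.2 scaled CPM in early HLBs and 15.2 and 17.9 at E10.5 (−0.20, adjusted p = 0.306). The difference between the stage changes of HLBs and FLBs, a test chosen after these values were seen, was above 0 for 2 of the 6 genes, where 14.3% of all genes tested were above 0. These were Hoxa4 (1.23, adjusted p = 0.00436, and 0.78 without E10.5 HLB replicate 1) and Hoxa5 (0.94, adjusted p = 0.00566). Neither passed with all 26 libraries in 1 limma model (adjusted p = 0.0698 and 0.103). Early FLBs were younger than early HLBs by the study's legends, so limb type and the length of the interval cannot be told apart.

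Against the other tissues of E10.5, the 6 genes separated BA, Ca and TB. Hoxa2 was 3.08-fold higher in BA than in E10.5 FLBs (log2 difference 1.54, adjusted p = 4.44e-05) and was the only 1 of the 6 that was higher, where 11.0% of all genes tested were higher. The other 5 were lower, where 9.70% were lower. Hoxa5 differed by −5.25 (adjusted p = 1e-11) and Hoxa4 by −2.85 (adjusted p = 2.22e-07), with 0, 2 and 9 reads of Hoxa4 in BA. Hoxa6 and Hoxa7 were at 0 in all BA libraries, at least 12.1-fold and 37.9-fold higher in FLBs, against a floor of 3 reads (0.371 CPM) per library.

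BA replicate 1 stood apart from its partners. It held 1.11 scaled CPM of Hoxa3 where the others held 7.05 and 7.29, and without it the difference of Hoxa3 from E10.5 FLBs was −1.23 in place of −1.98. Fitted on the 2 groups alone, that difference did not pass (adjusted p = 0.167). Neural marker sums also varied between BA libraries, from 45.7 to 168 scaled CPM, and their part in the Hox values was not tested.

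In TB, where Hox genes are switched on one after another as the trunk extends, 3 of the 6 genes were higher than in E10.5 HLBs, where 18.5% of all genes tested were higher. Hoxa2 was 3.62-fold higher (1.73, adjusted p = 1.88e-05), Hoxa4 2.66-fold (1.29, adjusted p = 0.00566) and Hoxa6 2.30-fold (1.05, adjusted p = 0.000907). Hoxa3, Hoxa5 and Hoxa7 did not pass (0.68, 0.54 and 0.30). Without E10.5 HLB replicate 3 the difference of Hoxa4 was 0.84 (adjusted p = 0.149).

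Ca, compared with BA, held less Hoxa2 (1.4, 2.52 and 4.44 scaled CPM, 9.00-fold lower, adjusted p = 1.09e-10), the only 1 of the 6 that was lower, where 38.9% of all genes tested were lower. Hoxa4 and Hoxa5 were higher (2.12 and 2.87, adjusted p = 1.99e-06 and 6.99e-09), where 36.0% were higher. Hoxa6 and Hoxa7 were at 0 in both tissues and no fold is given. Hoxa3 differed by −0.06 (adjusted p = 0.891), and by −0.81 (adjusted p = 1.3e-05) without BA replicate 1.

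The mean of both ES–LB groups was also compared with each of these tissues. Against BA, 5 of the 6 genes were higher, where 33.2% of all genes tested were higher, and Hoxa2 was the exception (0.35, adjusted p = 0.14). Hoxa5 differed by 4.71 (adjusted p = 5.42e-13), and Hoxa6 and Hoxa7 were at least 4.37-fold and 15.8-fold higher. Against Ca, 5 were again higher, where 41.3% were, with Hoxa2 at 3.38 (adjusted p = 7.67e-13) and Hoxa4 not passing (0.53, adjusted p = 0.0804). The mean hides a gap between the ES–LB groups. Hoxa5 was at 58.4 scaled CPM in ES–FLBs but at 6.24 in ES–HLBs, which overlapped Ca (5.17). Hoxa4 had a lower mean in ES–HLBs (1.88) than in Ca (3.39). Against TB, Hoxa2 was higher (1.20, adjusted p = 1.9e-05), where 36.4% of genes were. Hoxa6 and Hoxa7 were 3.57-fold and 2.06-fold lower, where 39.6% were. Hoxa3, Hoxa4 and Hoxa5 did not pass. For each of them the TB mean lay between the means of ES–FLBs and ES–HLBs (Hoxa5 at 24.4 scaled CPM in TB). The contrasts with BA, Ca and TB share the ES–LB libraries.

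The counterparts of these genes in the other Hox clusters, 11 paralogs of groups 2 to 7, were mostly lower in hindlimb types. In early HLBs 9 of 11 were lower, where 11.1% of all genes were, and none higher, led by Hoxc5 (−3.66), Hoxb5 (−2.76), Hoxb6 (−2.35) and Hoxb4 (−2.30). At E10.5 9 of 11 were lower, where 10.9% were, and Hoxb7 was higher (0.70). In ES–HLBs 9 of 11 were lower than in ES–FLBs, where 12.3% were, and none higher, led by Hoxc5 (−2.91), Hoxb5 (−2.70) and Hoxc4 (−2.23). Hoxd3 and Hoxd4 did not pass in ES–LBs, and they and Hoxb7 were named after their values were seen. Against early FLBs, 7 of the 11 were lower in ES–FLBs and 2 higher, where 44.6% and 37.3% of all genes were, with Hoxd4 (−3.34) and Hoxd3 (−2.98) the lowest.

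Of 20 genes of RA metabolism and response, 18 were tested in ES–LBs, and 5 were higher and 9 lower in ES–HLBs, where 12.8% and 12.3% of all genes were. Aldh1a2, the main RA-producing enzyme of the trunk, was at 30.3 scaled CPM in ES–HLBs and 166 in ES–FLBs (log2 difference −2.43). Cyp26a1, which degrades RA, was higher in ES–HLBs (5.66 against 0.655, 2.46), as was Dhrs3, which limits RA formation by reducing retinal (11.8 against 1.38, 2.70). In early limb buds 16 were tested, and 4 were higher and 4 lower in HLBs, where 9.03% and 11.1% of all genes were, with Cyp26a1 lower there (−1.17). Of 9 cofactor genes of the Pbx, Meis and Pknox families, none was higher and 4 were lower in ES–HLBs, among them Meis1 (−0.62), Pbx3 (−0.54) and Meis3 (−0.51). Of 18 Polycomb and Trithorax genes tested, which silence and maintain Hox genes, 1 was higher and 3 lower in ES–HLBs, against the 12.8% and 12.3% of all genes.

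Of 6 tested genes known to regulate Hox clusters, 2 were higher and 2 lower in ES–FLBs than in early FLBs, no larger shares than those of all genes (37.3% and 44.6%). Cdx1, a homeobox gene that activates Hox genes of the trunk, was at 48.2 scaled CPM in early FLBs and at 0.0794, below the floor of 3 reads, in ES–FLBs, while Egr2, a hindbrain regulator of Hoxa2, was higher. Egr2 was at 13.5 scaled CPM in ES–FLBs and 0.105 in early FLBs. Cdx1 was also lower in early HLBs (8.89 scaled CPM) than in early FLBs (log2 difference −2.38).

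By likeness over the 9 group means (Pearson r of mean log2 levels among 12371 genes, a description), each of Hoxa4 and Hoxa5 was closest to HoxC genes: Hoxa4 to Hoxc5 (0.936) and Hoxc4 (0.914), and Hoxa5 to Hoxc4 (0.953) and Hoxc6 (0.918). Hoxa3 was closest to Hoxc6 (0.958). Hoxa6 and Hoxa7 were closest to Mira (0.936 and 0.997), the RNA that overlaps Hoxa7 in the GENCODE but not the RefSeq annotation. Hoxa2 was closest to no Hox gene, with 2610020H08Rik (0.976), Fbxl16 (0.963) and Ccdc24 (0.961) as its nearest. Among the 6, r was 0.95 for Hoxa6 with Hoxa7 and 0.90 for Hoxa4 with Hoxa5, but between −0.01 and 0.07 for Hoxa2 with Hoxa4, Hoxa5, Hoxa6 or Hoxa7.

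Markers of other cell types moved with several of these contrasts, and their part in the Hoxa values was not tested. Summed heart markers were at 38.4 to 89.6 scaled CPM in early FLBs and 7.40 to 11.8 in early HLBs. Summed pluripotency markers, all 5 of them above 1 CPM, were at 14.8 to 21.6 scaled CPM in ES–FLBs and 58.6 to 84.3 in ES–HLBs, and at or below 1.08 in early limb buds. Summed blood markers were at 2394 to 4462 in early FLBs and 3435 to 7077 in early HLBs, against 5.37 to 8.29 in ES–FLBs and 88.0 to 165 in ES–HLBs. Summed limb mesenchyme markers were at 830 to 853 scaled CPM in ES–FLBs, 1123 to 1155 in ES–HLBs, 1169 to 1308 in early FLBs and 1510 to 1715 in early HLBs. Summed neural markers were at 46.4 to 52.8 scaled CPM in ES–FLBs and 54.6 to 73.9 in ES–HLBs, where Hoxa2 was higher than in limb buds, and at 12 to 14.6 in early FLBs and 9.62 to 11.7 in early HLBs. Summed somite and muscle markers were at 165 to 193 in E10.5 FLBs, 46.3 to 55.2 in early FLBs, 32.5 to 48.7 in early HLBs and 72.46 to 72.53 in E10.5 HLBs, so that they moved with the stage and the E10.5 limb-type contrasts.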

How the data were processed

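RNA-seq libraries were made with a stranded mRNA kit and sequenced single-end on a HiSeq1500. Per the labels and the study's methods, the authors checked reads with FastQC 0.11.5, mapped them to mm10 with HISAT2 2.0.4, counted them with Cuffdiff (Cufflinks 2.1.1 in the submitters' processing notes) and used edgeR 3.16.2, and the deposited values are CPM, so that all libraries have the same total. The strand setting of the counting is not given in the sources used here. Whole reads could be recovered for 93.1% to 99.2% of values per library (tolerance 0.05 reads). The early limb bud libraries lay at 93.1% to 93.5%, and every other library used lay at 98.9% or more. Recovery was judged insufficient for a count model, so the planned count tests were replaced by limma 3.58.1 in R 4.3.3.

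CPM were divided by unweighted trimmed-mean factors (0.867 to 1.09, trims of 30% on ratios and 5% on levels). Genes that did not reach 1 CPM in 3 fitted libraries were dropped. For the others, limma with trend and robust options was fitted to log2(scaled CPM + 0.5). Fold changes on that scale understate changes of low genes. Limb comparisons used the libraries of the groups compared, the difference between ES–LBs and embryos used its 4 groups, and BA, Ca and TB contrasts used all 26 libraries. Benjamini-Hochberg adjustment covered all genes tested, with a threshold of 0.05, and ratios are of mean scaled CPM. Fits were tested on simulated data.

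The 6 genes and the other gene lists (180 genes in 20 lists, 5 of them not in the table) were chosen with earlier results of these data known. All 6 genes were named in each comparison, and for each other list at most 4 genes with the largest absolute log2 difference among those called, and some genes of these lists are not reported here. Likeness was computed for genes reaching 5 CPM in a group mean, giving the 3 nearest genes. Replicates sharing a number did not deviate together (r from −0.087 to 0.126 over 56 pairs, 1 above 0.1), so no pairing was used. Promoters came from RefSeq and coding windows from the GRCm38 reference, aligned with MAFFT 7.526. Tables were handled with pandas 2.3.3 and numpy 2.4.6 under Python 3.11.15, exact tests with scipy 1.17.1 and plots with matplotlib 3.10.9. Alternatives changed the scaling, pseudocount, filter, fitted libraries, replicate block, variance model, threshold and each library in turn.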

Additional observations from a re-analysis of the deposited data

Results flagged for a closer look

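The gap between hindlimb and forelimb types differed between ES–LBs and early limb buds for Hoxa5 (−1.43, log2 scale, adjusted p = 1.27e-07, limma), Hoxa3 (−0.85, adjusted p = 0.00037) and Hoxa6 (−1.04, adjusted p = 0.029), each by the test of the difference itself. All 3 were more negative in ES–LBs. The embryonic difference used there also holds the age difference between early FLBs and early HLBs. Hoxa6 lay at 1.67 to 2.74 scaled CPM in ES–FLBs and 0.976 to 1.05 in ES–HLBs, the latter from 7 to 9 reads per library.

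The change from the early stage to E10.5 differed between HLBs and FLBs for Hoxa4 (1.23, adjusted p = 0.00436) and Hoxa5 (0.94, adjusted p = 0.00566). Both fell in FLBs, and neither passed the test in HLBs, where Hoxa4 differed by −0.63 (adjusted p = 0.107). This comparison was chosen after the values were seen, and it rests on 2 E10.5 HLB libraries. By the study's legends the early FLBs were younger than the early HLBs. Limb type and the length of the interval to E10.5 therefore cannot be told apart here. With all 26 libraries in 1 model, neither Hoxa4 (adjusted p = 0.0698, limma) nor Hoxa5 (adjusted p = 0.103) passed.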

How the results depend on the processing

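Of 1527 recomputed values of single genes, 1437 stayed on their side of the threshold, 72 lost a call and 17 gained one. The sign changed in 6, of which 5 (Hoxa3 in Ca against BA, and Hoxa6 in early limb types and in ES–FLBs against early FLBs) were called in neither setting, and 1, Hoxa5 between ES–FLBs and early FLBs, was at 0.20 and called on CPM as deposited. Count tests on recovered reads were not run, because too few values came out whole. Depth limits Hoxa6, whose ES–HLB values rest on fewer than 10 reads per library.

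The number of the 6 genes called changed by more than 1.5 times in these cases. For E10.5 limb types (5 called) it was 3 at an adjusted p of 0.001, 3 with a filter of 5 CPM and 2 without trend and robust estimation. For ES–HLBs against early HLBs it was 3 with the 5 CPM filter, and for the FLB stage change 3 at 0.001. For the HLB stage change it was 0 at 0.001, with median-of-ratios scaling, on CPM as deposited, with no filter, with all 26 libraries and without trend and robust estimation, and 1 with the 5 CPM filter. TB against E10.5 HLBs gave 5 with those groups alone, and the difference of stage changes gave 0 at 0.001 and 1 with all 26 libraries. That 1 was Hoxa6, below 0 (−0.92, adjusted p = 0.043, limma), and neither Hoxa4 nor Hoxa5 passed there.

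Over all genes, calls at 0.001 numbered 396 for early limb types, 1313 at E10.5, 1451 for ES–LBs, 927 for the difference between ES–LBs and embryos, 5608 and 625 for the FLB and HLB stage changes, 1213 for BA, 2830 for TB and 591 for the difference of stage changes. Without trend and robust estimation they numbered 853 at E10.5 and 2468 for the HLB stage change.

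Without each library in turn, the 6 genes gave 5 to 5 calls for early limb types, 3 to 4 at E10.5, 5 to 6 for ES–LBs, 2 to 3 for the difference between ES–LBs and embryos, 4 to 4 and 5 to 6 for ES–FLBs and ES–HLBs against early limb buds, 5 to 6 and 0 to 1 for the FLB and HLB stage changes, 6 to 6 for BA, 2 to 3 for TB, 3 to 4 for Ca, 5 to 5, 3 to 3 and 5 to 6 for ES–LBs against BA, TB and Ca, and 2 to 3 for the difference of stage changes. In the same order, calls over all genes were 1384 to 2326, 2168 to 2879, 2638 to 2804, 2586 to 3039, 9832 to 10231, 9257 to 10097, 7662 to 7830, 1868 to 4369, 2360 to 2775, 4337 to 5180, 10102 to 10436, 9377 to 9856, 10324 to 10827, 11054 to 11559 and 2094 to 3219.

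On CPM as deposited the split of higher and lower calls moved by over 10 percentage points: 1636 and 1012 in place of 1135 and 1391 for early limb types, 923 and 2046 in place of 1913 and 1371 at E10.5, 1402 and 1747 in place of 1731 and 1352 for the difference between ES–LBs and embryos, 6721 and 4053 in place of 4906 and 5863 for ES–FLBs, 6290 and 4086 in place of 4675 and 5648 for ES–HLBs, 5530 and 2845 in place of 3284 and 5138 for the FLB stage change, 2037 and 1589 in place of 1210 and 2598 for the HLB stage change, 3672 and 1879 in place of 2678 and 3113 for TB, and 826 and 2025 in place of 1857 and 1272 for the difference of stage changes. The cause of these changes was not tested.

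With the replicate block, 4 calls of the 6 genes changed, and no other: Hoxa7 at E10.5 (−0.37, adjusted p = 0.11, limma), Hoxa3 in ES–HLBs against early HLBs (adjusted p = 0.0473), Hoxa2 in the HLB stage change (adjusted p = 0.0826, leaving 1 gene called) and Hoxa6 in the difference of stage changes (adjusted p = 0.0269).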
